A study of Homo sapiens with 12 samples.

Results

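The 9 genes described here encode MAX and the proteins that pair with it to bind DNA: MYC, MYCL, MAX, MXD1, MXD3, MXD4, MXI1, MNT and MGA. They were picked by symbol, as 9 of the 60580 genes counted in each library, and all 9 passed the filter on low counts that 16123 genes passed (at least 20 counts in at least 1 library). RNA came from HCT116, an established human colorectal cancer cell line, in 4 groups. Wild-type (WT) and miR-34a/b/c-KO cultures were each kept for 48 h with the solvent DMSO or with 4 µM of 5-fluorouracil (5-FU), a pyrimidine analog that disturbs DNA and RNA synthesis. In miR-34a/b/c-KO cells (KO cells below) the regions that encode the microRNA precursors miR-34a and miR-34b/c were removed from their host genes with Cas9, and WT cells had received the Cas9 plasmid without a guide RNA. Both genotypes were grown up from single cells, so that a difference between them can also be a difference between clones, and whether the replicates are different clones is not given in the sources used here. Each group was labelled as 3 biological replicates, but the file of WT 5-FU replicate 1 held the same count as WT DMSO replicate 3 for every gene. It was left out, which left 2 libraries in that group and 11 in all.

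MYC is a basic helix-loop-helix leucine zipper transcription factor that binds E-boxes, with CACGTG as the preferred sequence, only when paired with MAX. MYC:MAX and MYCL:MAX dimers recruit coactivators and raise the transcription of genes for ribosome biogenesis, nucleotide synthesis, glycolysis and cell cycle entry. MXD1, MXD3, MXD4, MXI1 and MNT also pair with MAX, bind the same E-boxes and recruit SIN3 and histone deacetylases, and MGA brings MAX to a variant Polycomb complex. MXD1 and MXD4 are known for their rise when cells stop dividing and differentiate, whereas MYC is driven by beta-catenin and TCF in colorectal cancer. The miR-34 family is induced by p53, and MYC has been described among its targets.

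The microRNAs removed in KO cells are shown first, since their seed (bases 2 to 8, in capitals) is what pairs with the 3′ UTR of a target. The sequences are those of RefSeq, at chr1:9151735-9151756 on the minus strand for miR-34a-5p and chr11:111512950-111512972 on the plus strand for miR-34b-5p (GRCh38.p14). For miR-34c-5p the name alone is given.
hsa-miR-34a-5p: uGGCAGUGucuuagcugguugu
hsa-miR-34b-5p: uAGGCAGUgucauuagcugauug

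The word that pairs with the seed of miR-34a, CACTGCC, occurred in the 3′ UTR of 2 of the 9 members, MXD4 and MNT, and in 15.6% of the 3′ UTRs of 19538 genes (transcript strand, GENCODE release 44). MXD4 held it 3 times in 3112 bases, at chr4:2250396-2250402, chr4:2249558-2249564 and chr4:2247651-2247657 (GRCh38, minus strand). MNT held it once in 2828 bases, at chr17:2386215-2386221 on the minus strand. The word for miR-34b, ACTGCCT, was found in 13.9% of the 3′ UTRs, and among the members once in MYC and once in MXD4, where it overlapped the third site by all but 1 base. A match to a word is a description of the sequence and says nothing about binding in these cells. The sites are written on the transcript strand with the word in capitals.
MXD4 site 1: gctgcctggCACTGCCcgcttgccg
MXD4 site 2: aaaatgctgCACTGCCcagcagccc
MXD4 site 3: ccccctcccCACTGCCtgcacagag
MNT site: aaacccagcCACTGCCaagcttcct

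Promoter stretches are shown because CACGTG is the E-box that the network itself binds. RefSeq promoter windows (250 bases before to 50 bases after a start site) were given for 8 members, without MYC, in 13 windows. CACGTG, which reads the same on both strands, occurred in the window of MXD4, at position -238 from the start site (chr4:2262342-2262347), and in that of MNT, at position -193 (chr17:2401248-2401253) (GRCh38.p14, both genes on the minus strand). It occurred in 7.26% of 35116 windows of all genes, and nothing particular to the members is read from so few matches. The stretches are written on the strand of the gene with the E-box in capitals.
MXD4 promoter: gggccgggccacCACGTGctgttgctaagc
MNT promoter: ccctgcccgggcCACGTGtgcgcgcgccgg

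Libraries held 22831415 to 39064210 counts on genes, and normalization factors ranged from 0.955 to 1.05. As a check of the treatment, the p53 target CDKN1A (p21) went from 167 ± 1.18 CPM (counts scaled to a common library size; mean ± SD) to 2078 ± 143 CPM with 5-FU in WT cells and from 469 ± 17.5 to 2481 ± 51.9 CPM in KO cells. The microRNA genes themselves had no counts in any library, WT included, so that the deletion could not be checked on them. The host transcript of miR-34a, MIR34AHG, was detected in KO cells (22.2 ± 0.295 CPM with DMSO) and was 2.19 ± 0.08 (log2 fold change ± SE) higher there than in WT cells (4.84 ± 0.467 CPM). Of the epithelial and intestinal markers, EPCAM (296 to 443 CPM), KRT8, KRT18, CDH1 and CDX2 (19.8 to 26.3 CPM) were detected in every library, KRT20 was low (1.09 to 7.47 CPM), VIL1 reached at most 2.21 CPM with no counts in 1 library, and CDX1 had no counts in any of the 11 libraries. Markers of blood cells (PTPRC, CD3E) and of fibroblasts (DCN, COL1A2) stayed at or below 4 counts in every library, while COL1A1 was found at 21.7 to 70.5 CPM and CD68 at 15.2 to 36.2 CPM.

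Levels of different genes were compared per length of their merged exons, as RPKM (CPM divided by the length in kilobases). In WT cells with DMSO, MYC was by far the most abundant mRNA of the network with 75.1 ± 1.39 RPKM (SD, n = 3), followed by MXI1 with 13.6 ± 0.683, MAX with 8.29 ± 0.209 and MXD4 with 7.06 ± 0.735 RPKM. MNT (3.87 ± 0.166) and MXD3 (3.8 ± 0.389) came next and had overlapping ranges, as did MGA (2.7 ± 0.138) and MYCL (2.55 ± 0.19). MXD1 was the least abundant, with 0.702 ± 0.0992 RPKM. The mRNA of the common partner MAX was thus present at a lower level per length than that of MYC in every library. With the length of the longest transcript in place of the merged exons, MXD3 (7.91 RPKM) stood above MNT (6.83 RPKM) in this group, so that the order of near neighbors depends on the length used.

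The order changed in its lower and middle part between groups. MYC and MXI1 were first and second in all 4 groups. MXD4 was above MAX in KO cells with DMSO (10 ± 0.503 against 8.21 ± 0.627 RPKM) and in KO cells with 5-FU (11 ± 0.608 against 8.28 ± 0.321 RPKM), without overlap of the libraries. With the longest transcripts the first of these pairs was level, at 16.3 RPKM each. In WT cells with 5-FU the range of MXD4 (10.7 to 13.5 RPKM) overlapped that of MXI1 (13.1 to 13.8) and that of MAX (10.9 to 11.8). MXD1 was last in 3 groups, but in KO cells with 5-FU it reached 2.6 ± 0.101 RPKM and stood above MYCL with 1.7 ± 0.0884 RPKM. MXD3 and MNT overlapped in both KO groups as well, with MXD3 at 4.89 ± 0.604 and MNT at 4.25 ± 0.094 RPKM with DMSO.

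**Figure D1:**
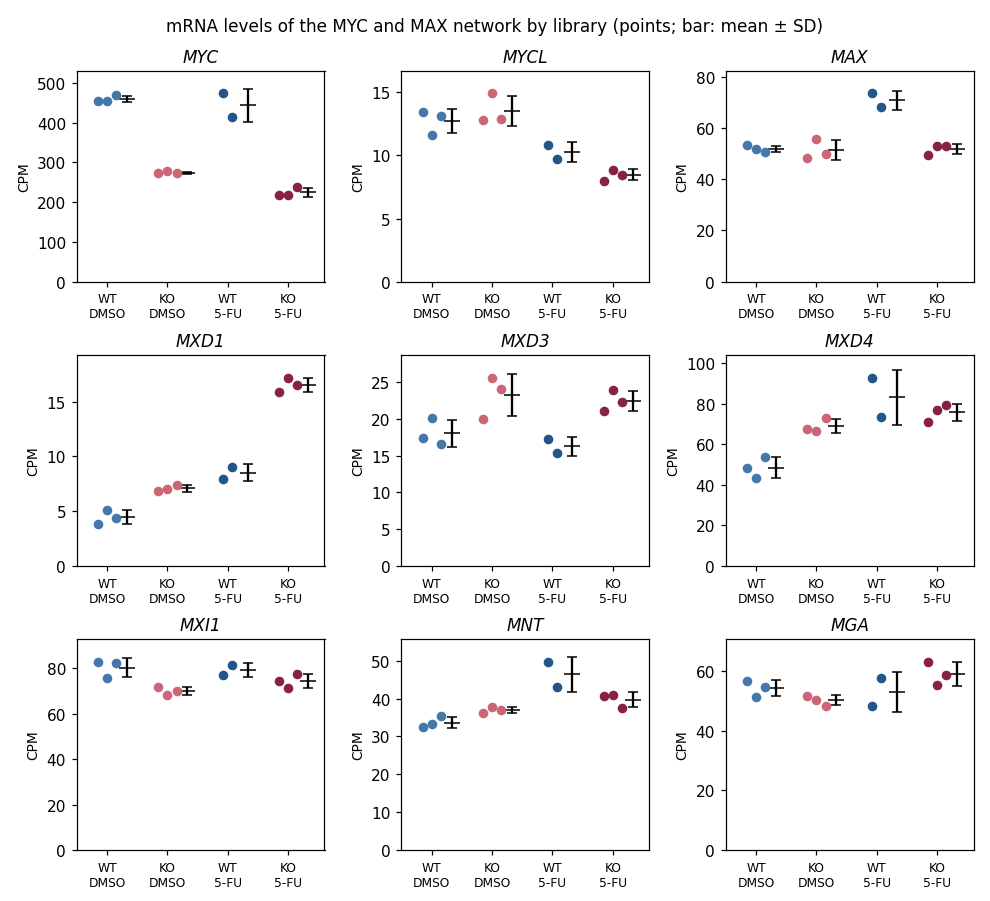
Level of each of the 9 mRNAs in CPM (y axis, from 0) by group (x axis), with 1 point per library and a bar for the mean ± SD (n = 3, for WT cells with 5-FU n = 2). The points of MYC lie at 453 to 468 CPM in WT cells and 272 to 277 CPM in KO cells with DMSO, and those of MXD1 at 15.9 to 17.2 CPM in KO cells with 5-FU, above all other groups.

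The first comparison asked how the network differed between KO and WT cells without drug. A gene was called when its FDR (p of edgeR's quasi-likelihood test, adjusted over all 16123 genes) was below 0.05 and its fold change above 1.5. By this rule 2 of the 9 members were called, MYC as lower and MXD1 as higher in KO cells, beside 14.1% of all genes (4.97% lower and 9.1% higher). By FDR alone 5 members passed, which is near the 46.3% of all genes that did, and the groups did not overlap for 5 members, against 57.5% of all genes.

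MYC was measured at 453, 455 and 468 CPM in the 3 WT libraries with DMSO and at 272, 277 and 274 CPM in the 3 KO libraries. All KO libraries were below all WT libraries, with coefficients of variation of 1.85% in WT and 0.902% in KO cells. The log2 fold change was -0.74 ± 0.05 (SE, FDR = 2.2e-08), a level 40.2% lower in KO cells. In RNA from bulk cultures a lower level in every cell and a smaller share of cells with a high level cannot be told apart. MYCL, the paralog with a similar DNA-binding domain, gave 13.4, 11.6 and 13.1 CPM in WT and 12.8, 14.9 and 12.9 CPM in KO cells with overlapping ranges (0.09 ± 0.09, FDR = 0.467). MAX likewise overlapped, with 53.2, 51.7 and 50.6 CPM in WT and 48.3, 55.8 and 50 CPM in KO cells (-0.01 ± 0.06, FDR = 0.874).

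Among the repressors, MXD1, the founding MAD protein, rose from 3.86, 5.12 and 4.4 CPM in WT cells to 6.81, 7.03 and 7.37 CPM in KO cells. The groups did not overlap, and the fold change of 1.6 (log2 0.67 ± 0.11, FDR = 0.000127) was just above the limit for a call. Without replicate 1 of WT cells, its lowest library, the log2 fold change was 0.58 and below that limit, at FDR = 0.00117. With a factor for unwanted variation (RUVg) in the model MXD1 had 0.93 ± 0.30 and did not pass (FDR = 0.0614). The factor was estimated from the 11123 genes left after the 5000 that differ most between groups were taken out. Since 9712 genes passed by FDR for 5-FU in WT cells alone, many of these control genes responded to the drug. Of the variance of the factor 98.2% lay between treatments and 4.52% between genotypes. MXD4 was at 48.2, 43.6 and 53.7 CPM in WT and at 67.6, 66.4 and 72.9 CPM in KO cells, again without overlap (0.51 ± 0.09, FDR = 0.000166), although its value was -0.10 ± 0.19 (FDR = 0.793) with the RUVg factor. MXD3 was higher in KO cells by 0.37 ± 0.10 (FDR = 0.00552), with 1 KO library (20 CPM) inside the range of the WT libraries (16.6 to 20.1 CPM). MXI1 was slightly lower (-0.20 ± 0.05, FDR = 0.00581), at 68.1 to 71.6 CPM in KO cells below 75.7 to 82.9 CPM in WT cells. With the RUVg factor neither MXD3 (0.08, FDR = 0.896) nor MXI1 (-0.08, FDR = 0.769) passed. MNT (0.14 ± 0.07, FDR = 0.128) and MGA (-0.11 ± 0.07, FDR = 0.209) did not pass the test. MXD3 shared 19.5% of its exon bases with RAB24 on its own strand and 24.2% with PRELID1 on the other, and its counts may hold reads of these neighbors, since the use of strand in counting is not given in the sources used here. Shares above 10% were also found for MAX (16.1%) and MNT (12.2%), on the opposite strand.

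**Figure D2:**
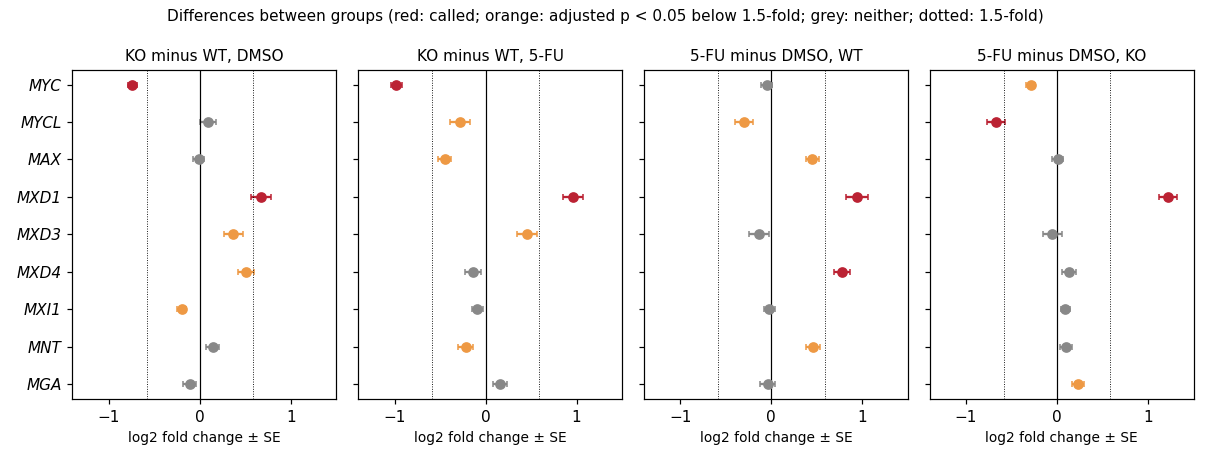
Log2 fold change ± SE (x axis) of the 9 members (y axis) in the 4 comparisons of groups, red where called, orange where the FDR alone was below 0.05 and grey otherwise, with dotted lines at a fold change of 1.5. MYC lies at -0.74 and -0.98 and MXD1 at 0.67 and 0.96 in the comparisons of KO with WT cells. MXD4 lies at 0.78 with 5-FU in WT against 0.13 in KO cells. With an RUVg factor, which held 98.2% of its variance between treatments, the WT value of MXD4 was -3.02 ± 1.14 (not drawn).

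MYC lies at chr8:127735434-127742951 (GRCh38, plus strand, band 8q24), and its neighbors were lower in KO cells as well. Of 51 other tested genes that start within 10 Mb of MYC, 47 had lower and 4 higher values in KO cells with DMSO, with 26 called lower and 1 higher. Their median log2 fold change was -0.67, a level 1.59-fold lower, against 0.03 over all genes. The value of MYC, -0.74, differed from this median by -0.07, and 20 of the 51 genes had lower values than MYC. With 5-FU 48 of the 51 were lower in KO cells and the median was -0.69, while MYC was at -0.98, which is 0.30 below the median and lower than all but 14 of these genes. So MYC sat close to the middle of its surroundings with DMSO and in their lower part with 5-FU.

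The lower values were found over a long stretch around MYC but not on the other arm. The 156 tested genes of the short arm of chromosome 8 had medians of 0.00 with DMSO and -0.02 with 5-FU, and the 322 other genes of the long arm -0.26 and -0.38. In steps of 10 Mb from the start of MYC, the medians with DMSO were -0.80 at 20 to 10 Mb before it (11 genes), -0.70 in the 10 Mb before it (40 genes), -0.60 in the 10 Mb after it (11 genes) and -0.50 at 10 to 20 Mb after it (94 genes). Farther toward the centromere they were 0.05 at 30 to 20 Mb (39 genes) and 0.37 at 40 to 30 Mb before MYC (36 genes). In a list of 30 named neighbors on 8q24, of which 27 were tested, 13 were called lower and 0 higher with DMSO, and 16 lower and 0 higher with 5-FU. Within this list, which does not hold every gene of the stretch, the largest called changes with DMSO were those of SQLE, an enzyme of cholesterol synthesis (-1.99 ± 0.06), the Arf GTPase-activating protein ASAP1 (-1.39 ± 0.06), the stress-response gene NDRG1 (-1.35 ± 0.07) and LRATD2 (-1.32). PVT1, the long noncoding RNA next to MYC, was lower by less, at -0.27 ± 0.08 with DMSO, but at -0.84 ± 0.08 with 5-FU. The part of this stretch of the chromosome in the lower level of MYC was not tested.

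**Figure D3:**
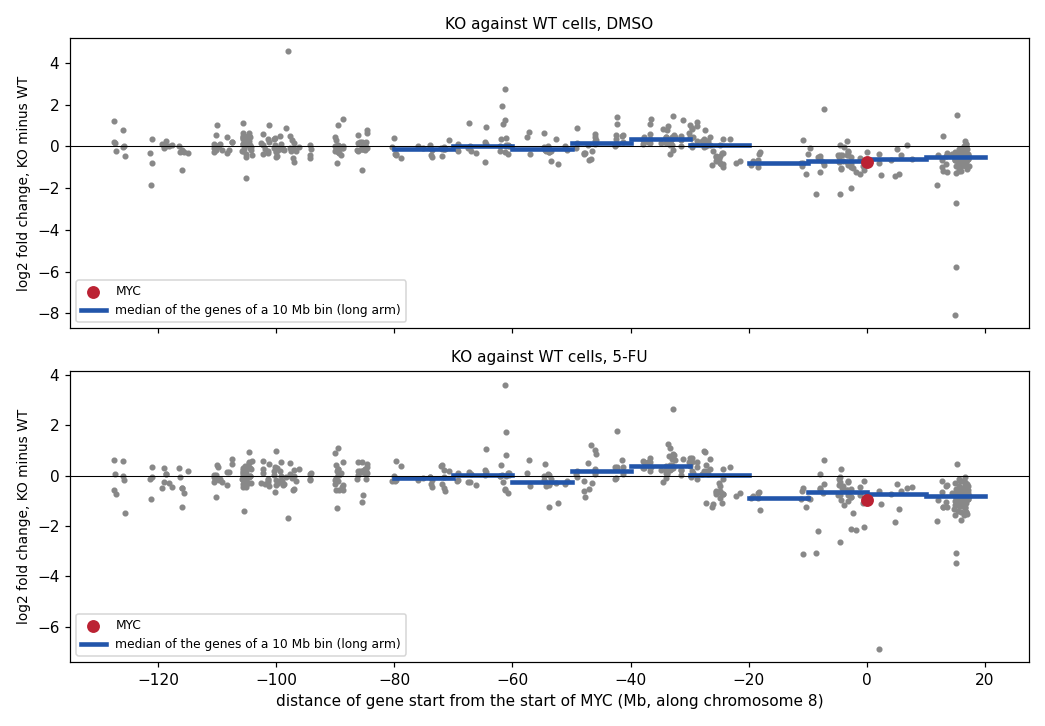
Log2 fold change of KO against WT cells (y axis) for all tested genes of chromosome 8 by the distance of their start from that of MYC in Mb (x axis), with DMSO (top) and 5-FU (bottom). MYC is the red point, and blue lines are medians of bins of 10 Mb on the long arm with at least 10 genes. The medians near MYC lie between -0.50 and -0.80 with DMSO, whereas the short arm at the left is centered at 0.00.

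None of the other 8 members lay in such surroundings. The medians of the genes within 10 Mb of them (82 to 210 genes) were between -0.07 and 0.03 with DMSO and between -0.11 and 0.04 with 5-FU. For MXD1 on chromosome 2, 6 of 113 neighbors with DMSO and 5 of 113 with 5-FU had higher values than MXD1 itself. For MXD4 on chromosome 4, 13 of 82 neighbors had higher values with DMSO and 47 of 82 with 5-FU.

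The second comparison set KO against WT cells under 5-FU. Again 2 members were called, MYC as lower and MXD1 as higher in KO cells, beside 18.1% of all genes (10.6% lower and 7.58% higher). By FDR alone 6 of the 9 passed (49.6% of all genes), 4 as lower (28%) and 2 as higher (21.6%), and 6 did not overlap between the groups (63% of all genes). Each group of libraries enters more than one comparison, so that the comparisons of this and the following paragraphs are not independent of each other.

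MYC was at 473 and 414 CPM in the 2 WT libraries and at 218, 218 and 237 CPM in the 3 KO libraries, so that every WT library was well above every KO library. The log2 fold change was -0.98 ± 0.06 (FDR = 2.91e-09), 49.3% lower in KO cells. MXD1 was at 7.98 and 9.05 CPM in WT and at 15.9, 17.2 and 16.5 CPM in KO cells, without overlap and 1.95-fold higher (log2 0.96 ± 0.11, FDR = 2.5e-06). MXD3 was higher by 0.46 ± 0.11 (FDR = 0.0023), at 21.1, 23.9 and 22.3 CPM against 17.2 and 15.3 CPM. MAX was lower in KO cells (-0.45 ± 0.07, FDR = 4.86e-05), with 49.5, 52.9 and 53 CPM in KO against 73.5 and 68.2 CPM in WT cells. MYCL (-0.28 ± 0.11, FDR = 0.0345) and MNT (-0.22 ± 0.08, FDR = 0.0219) were lower by less, and both lost this under TMM factors (FDR = 0.067 and 0.0566) and without replicate 2 of WT cells with 5-FU (FDR = 0.224 and 0.251). MXD4 (-0.14 ± 0.09, FDR = 0.226), MXI1 (-0.09 ± 0.06, FDR = 0.211) and MGA (0.16 ± 0.08, FDR = 0.117) did not pass, but without replicate 3 of WT cells with 5-FU, MXD4 was at -0.30 (FDR = 0.00933) and MGA at 0.29 (FDR = 0.00604). These values rest on 2 WT libraries, of which replicate 2 had the higher level of MXD4 (92.9 against 73.6 CPM) and the lower level of MGA (48.3 against 57.7 CPM).

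In the response of WT cells to 5-FU, the repressors MXD1 and MXD4 were called higher and no member was called lower, beside 27.8% of all genes called (18.5% higher and 9.38% lower). By FDR alone 5 members passed (60.2% of all genes), 4 as higher (31.9%) and 1 as lower (28.3%), and 5 did not overlap (68.8%). MXD1 went from 3.86, 5.12 and 4.4 CPM to 7.98 and 9.05 CPM (log2 0.94 ± 0.12, FDR = 4e-06). MXD4, a MAD protein of differentiating cells, went from 48.2, 43.6 and 53.7 CPM to 92.9 and 73.6 CPM, so that both treated libraries were above all controls (log2 0.78 ± 0.09, FDR = 2.45e-06; -3.02 ± 1.14 in the model with an RUVg factor). MNT rose from 32.5, 33.2 and 35.3 to 49.7 and 43 CPM (0.46 ± 0.08, FDR = 6.49e-05; -2.21 ± 0.99 with the RUVg factor), and MAX from 53.2, 51.7 and 50.6 to 73.5 and 68.2 CPM (0.45 ± 0.07, FDR = 2.72e-05; -0.96 with the RUVg factor). This RUVg factor held 98.2% of its variance between treatments, and the SE of the 5-FU responses of these 3 genes became 0.99 to 1.14 with it. No member passed the test in WT cells under this factor (3 genes in all were called, and 2738 had an unadjusted p below 0.05).

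The activators moved little in WT cells. MYC was at 453 to 468 CPM without and at 473 and 414 CPM with 5-FU, 1 treated library above and 1 below all controls (-0.05 ± 0.06, FDR = 0.505). Without replicate 2 of WT cells with 5-FU the value was -0.15 (FDR = 0.0371). MYCL fell by 0.30 on the log2 scale (SE 0.10, FDR = 0.0177), from 11.6 to 13.4 CPM to 9.73 and 10.8 CPM, and this did not pass without replicate 1 or 3 of WT cells with DMSO or replicate 3 of WT cells with 5-FU (FDR = 0.0628, 0.0537 and 0.11). MXD3 (-0.14 ± 0.11), MXI1 (-0.02 ± 0.06) and MGA (-0.04 ± 0.08) did not pass. With the duplicated library kept under its 5-FU label no gene and no member was called in this comparison, although 6467 genes had an unadjusted p below 0.05 in edgeR, and MXD1 then had 0.68 (FDR = 0.0683) and MXD4 0.60 (FDR = 0.0634).

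In KO cells with 5-FU, MXD1 was called higher, as in WT cells, and MYCL lower, beside 25.2% of all genes (13.3% higher and 12% lower). Neither passed the interaction test described below (FDR = 0.187 for MXD1 and 0.0608 for MYCL). Of the 9 members 4 passed by FDR (60.4% of all genes) and did not overlap between the groups (68.8% of all genes). MXD1 rose from 6.81, 7.03 and 7.37 CPM to 15.9, 17.2 and 16.5 CPM, 2.34-fold (log2 1.22 ± 0.10, FDR = 2.47e-08), and 8.76% of all genes had a larger absolute change in this comparison. MYCL fell from 12.8, 14.9 and 12.9 to 8.01, 8.88 and 8.48 CPM (-0.67 ± 0.10, FDR = 1.4e-05). MYC fell too, from 272, 277 and 274 CPM to 218, 218 and 237 CPM, with all treated below all control libraries (-0.29 ± 0.05, FDR = 0.000261). MGA rose slightly (0.23 ± 0.07, FDR = 0.0101), from 48.3 to 51.6 CPM to 55.2 to 63 CPM, but did not pass without replicate 1 of KO cells with 5-FU (0.18, FDR = 0.0604). MXD4 (0.13 ± 0.08, FDR = 0.189), MNT (0.10 ± 0.07, FDR = 0.214) and MAX (0.01 ± 0.06, FDR = 0.867), which had all risen in WT cells, did not pass here, nor did MXI1 (0.09 ± 0.05) and MXD3 (-0.05 ± 0.10). With the RUVg factor none of the members was called in KO cells (1 gene in all, 3027 with an unadjusted p below 0.05).

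Whether the response to 5-FU differed between the genotypes was tested by the interaction of the 2 factors. MXD4 was the 1 member called, as lower, beside 10.1% of all genes (3.42% higher and 6.66% lower), with a difference of -0.65 ± 0.13 (FDR = 0.0016): it was 1.71-fold higher with 5-FU in WT cells and 1.1-fold higher in KO cells, which already had 69 ± 3.46 CPM without drug. MAX (-0.44 ± 0.09, FDR = 0.00277), MNT (-0.36 ± 0.10, FDR = 0.018) and MYC (-0.24 ± 0.08, FDR = 0.0408) passed by FDR alone, so that 4 of 9 members passed against 26.1% of all genes. All 4 had a lower value for the response in KO cells, as had 1073 of the 1624 called genes. The share of called genes with a higher value was 33.9%, but 44.5% with TMM factors and 51.1% with DESeq2. MYC did not pass with TMM factors (FDR = 0.134), with DESeq2 (FDR = 0.151) or in 9 of 11 fits that left out a library, and none of the 4 passed with the RUVg factor. The call of MXD4 was lost without replicate 2 of WT cells with 5-FU (-0.46, FDR = 0.00709) or replicate 2 of WT cells with DMSO (-0.58, FDR = 0.00421), because the difference then fell below 1.5-fold. MYCL (-0.37 ± 0.14, FDR = 0.0608), MGA (0.27 ± 0.11, FDR = 0.0746), MXD1 (0.29 ± 0.16, FDR = 0.187), MXI1 (0.11 ± 0.08) and MXD3 (0.09 ± 0.15) did not pass. MGA, whose value was in the opposite direction to the 4 that passed, did pass with TMM factors (0.33, FDR = 0.0369), with DESeq2 (0.35, FDR = 0.016), with no filter (0.30, FDR = 0.0273) and without replicate 3 of WT cells with 5-FU (0.40, FDR = 0.00415), and MYCL passed without that library (-0.44, FDR = 0.0308) and with 20 counts asked of every library (-0.39, FDR = 0.0446). MNT did not pass without replicate 2 of WT cells with 5-FU (FDR = 0.0678) or replicate 3 of KO cells with 5-FU (FDR = 0.0512).

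The balance of the network was described by the summed RPKM of the MAX partners that repress (MXD1, MXD3, MXD4, MXI1, MNT, MGA) over that of those that activate (MYC, MYCL). The ratio was 0.415, 0.398 and 0.413 in WT cells with DMSO and 0.498 and 0.53 with 5-FU. It was 0.721, 0.715 and 0.746 in KO cells with DMSO and 1.01, 1.02 and 0.968 with 5-FU. The 4 groups did not overlap, and their means were 0.408 ± 0.00943, 0.514 ± 0.0228, 0.727 ± 0.0167 and 1 ± 0.0295. Both terms contributed: with DMSO the activators summed to 76.8 to 79.3 RPKM in WT and 47.1 to 48.3 RPKM in KO cells, while the repressors summed to 30.6 to 32.7 and 34 to 35.4 RPKM. Since MYC makes up most of the activators, the ratio between genotypes carries the difference of MYC itself. It is a ratio of mRNA levels per length and no measure of protein or of dimers on DNA.

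**Figure D4:**
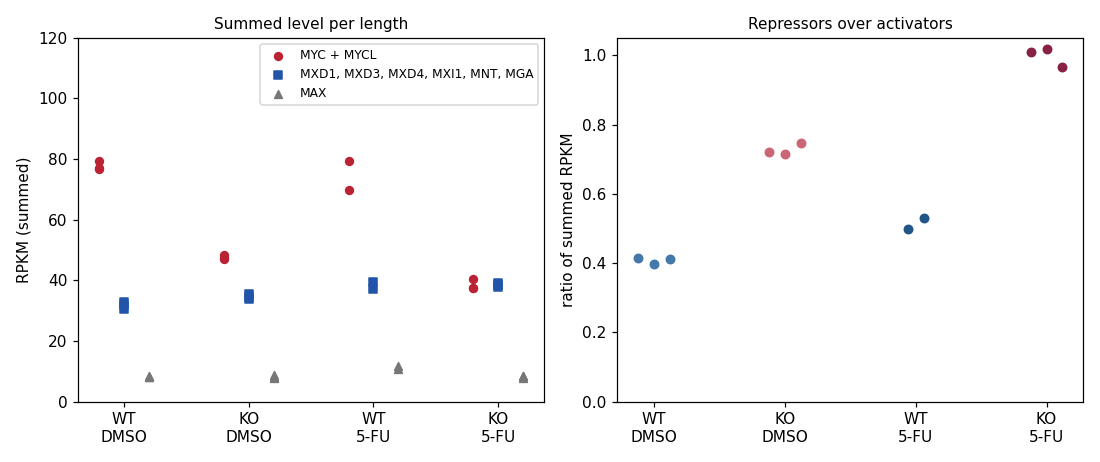
Left, summed level per length (RPKM, y axis) of activators (MYC and MYCL, circles), repressors (squares) and MAX (triangles) in each library by group (x axis). Right, ratio of repressors to activators per library, from 0.398 to 0.415 in WT cells with DMSO up to 0.968 to 1.02 in KO cells with 5-FU.

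The parallel MLX branch, in which MLX pairs with MLXIP and the glucose-responsive MLXIPL at related E-boxes, was given by a list of 4 genes, of which 3 were tested and MYCN was not. No gene of it was called between genotypes, beside 14.1% of all genes with DMSO and 18.1% with 5-FU. MLXIPL was higher in KO cells with DMSO (0.44 ± 0.07) and was called with 5-FU in WT cells, where it rose by 0.78 ± 0.08 from 40.9 ± 1.47 to 70.2 ± 8.67 CPM. MLX gave values between -0.14 and 0.02 in the 4 comparisons.

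Of 15 coactivators of MYC, 1 was called higher and 0 lower in KO cells with DMSO, and 0 higher and 1 lower with 5-FU, beside 14.1% and 18.1% of all genes called. The first was CDK9, the kinase of the elongation factor P-TEFb (0.59 ± 0.07, from 79.7 ± 7.76 to 120 ± 2.19 CPM). The second was RUVBL1, an ATPase of chromatin remodeling complexes (-0.62). With 5-FU the acetyltransferase KAT5 and the BAF and TIP60 subunit ACTL6A were called lower in WT (-0.71 and -0.67) and in KO cells (-0.68 and -0.59), and no coactivator was called higher. The median of the list was between -0.13 and 0.08 in the 4 comparisons, against -0.06 to 0.03 over all genes.

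Of 9 corepressors of MXD proteins and MNT, none was called between genotypes (14.1% of all genes with DMSO and 18.1% with 5-FU). By FDR 5 were lower and 2 higher in KO cells with DMSO, where 21.9% of all genes were lower and 24.5% higher. The smallest FDR there was that of the deacetylase HDAC2 (-0.42 ± 0.06, FDR = 2.39e-05). SIN3B, a scaffold that MXD proteins bind, rose with 5-FU from 71.5 ± 3.69 to 140 ± 16.7 CPM in WT cells (0.97 ± 0.07) and from 70.3 ± 2.75 to 112 ± 2.93 CPM in KO cells (0.67 ± 0.06). SAP30, another subunit of the SIN3 complex, was called lower in both (-0.74 and -0.83).

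The Polycomb partners of MGA, 11 genes of the complex PRC1.6, included none called between genotypes (14.1% of all genes with DMSO and 18.1% with 5-FU). By FDR 5 were lower and 2 higher in KO cells with DMSO (21.9% and 24.5% of all genes). In WT cells 0 were called higher and 3 lower with 5-FU (18.5% and 9.38% of all genes), the reader CBX3 (-0.95), PCGF6 (-0.71), which defines the complex, and YAF2 (-0.63). In KO cells 1 was called lower, CBX3 (-0.83). For PCGF6 the response differed between genotypes by 0.67 ± 0.12, from 40.6 ± 2.44 to 24.8 ± 4.03 CPM in WT cells beside 32.9 and 32 CPM in KO cells. MGA itself was not called in any comparison.

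Genes that MYC is known to induce were lower in KO cells as a group. Of 48 tested genes (of 49 listed), 39 were lower and 2 higher by FDR in KO cells with DMSO, against 21.9% lower and 24.5% higher of all genes. The median was -0.29 against 0.03 over all genes, and the shift was mostly below the fold limit, since 4 were called lower and 1 higher (4.97% and 9.1% of all genes). The called ones were TERT, the catalytic subunit of telomerase (7.08 ± 0.404 to 2.93 ± 0.37 CPM, -1.28 ± 0.13), the ribosome biogenesis factor BOP1 (-0.87 ± 0.07), lactate dehydrogenase LDHA (-0.61 ± 0.06), the mitochondrial chaperone HSPD1 (-0.61 ± 0.05) and, in the other direction, the glucose transporter SLC2A1 (66 ± 3.95 to 213 ± 2.84 CPM, 1.69 ± 0.06). BOP1 lies on the same arm as MYC. Lower medians with DMSO were not particular to this list. They were -0.22 for 7 other partners of MYC, -0.20 for the corepressors and -0.14 for the PRC1.6 genes. Coactivators were at -0.13 and regulators of the stability of MYC at -0.12. With 5-FU, 36 were lower and 4 higher by FDR (28% and 21.6% of all genes). Of the list 8 were called lower and 2 higher (10.6% and 7.58% of all genes), with a median of -0.38 against -0.05 over all genes. The corepressors were at -0.32 there, and the other lists just named lay between -0.12 and 0.08. TERT (-1.73 ± 0.14), BOP1 (-1.20 ± 0.08) and SLC2A1 (1.20 ± 0.07) were again called, and the phosphatase CDC25A, which starts the cell cycle, was higher in KO cells (1.35 ± 0.07).

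The same list was also lower with 5-FU. In WT cells, where MYC itself did not pass the test, 30 were lower and 6 higher by FDR (9 and 3 called, median -0.28). Of all genes 28.3% were lower and 31.9% higher by FDR there (9.38% and 18.5% called, median 0.03). In KO cells 36 were lower and 5 higher (10 and 1 called, median -0.31). Of all genes 33.8% were lower and 26.6% higher by FDR there (12% and 13.3% called, median -0.06). With the RUVg factor the medians of these responses were 0.29 in WT and -0.03 in KO cells, and those between genotypes -0.22 with DMSO and -0.35 with 5-FU. Since that factor held 98.2% of its variance between treatments, this fit can hardly separate it from the responses to 5-FU. The chaperone pair HSPE1 (-1.09 in WT and -1.38 in KO cells) and HSPD1 (-1.03 and -0.98) was called lower and SLC2A1 (1.66 and 1.17) higher in both genotypes. CDC25A fell in WT cells (39.9 ± 1.45 to 19.4 ± 1.24 CPM) and rose in KO cells (35.7 ± 1.34 to 49.6 ± 1.21 CPM), and the interaction of 1.51 ± 0.10 was called. The amino acid transporter SLC7A5 had the opposite pattern (463 ± 7.1 to 697 ± 77.1 CPM in WT and 459 ± 16.1 to 352 ± 11.6 CPM in KO cells, interaction -0.97 ± 0.08). The median interaction of the list was -0.03. A lower median with 5-FU was not particular to this list. In WT cells it was -0.44 for the PRC1.6 genes, -0.39 for the other partners of MYC and -0.16 for the stability regulators. Coactivators (-0.01) and corepressors (0.00) stayed near the median of all genes there. In KO cells these lists lay between -0.17 and 0.01.

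Of 15 genes that MYC is known to repress, 3 were called higher and 2 lower in KO cells with DMSO (9.1% and 4.97% of all genes), with a median of 0.23, which was 0.14 without replicate 3 of KO cells with 5-FU and 0.14 to 0.28 over all fits that left out a library. THBS1, a matrix protein that restrains angiogenesis (16.6 ± 0.72 to 63.4 ± 4.05 CPM, 1.93 ± 0.07), CDKN1A (1.49 ± 0.05) and the CDK inhibitor CDKN2B (8.75 ± 0.613 to 23.7 ± 0.824 CPM, 1.43 ± 0.08) were higher. NDRG1, which lies on the same arm as MYC, was lower (-1.35 ± 0.07), as was the stress gene GADD45B (-0.79). With 5-FU 1 was called higher, CDKN2B (1.55), and 2 lower, NDRG1 (-1.33) and GADD45B (-0.84), and the median was 0.02 (-0.05 without replicate 2 and 0.14 without replicate 3 of WT cells with 5-FU). In response to 5-FU, 5 were called higher and 0 lower in WT cells (18.5% and 9.38% of all genes). In KO cells 5 were called higher and 1 lower (13.3% and 12% of all genes). The medians were 0.50 and 0.45, and the calls were led by the p53 target CDKN1A (3.64 and 2.40). Several genes of this list are induced by p53 as well, and the part of MYC in their change was not tested.

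**Figure D5:**
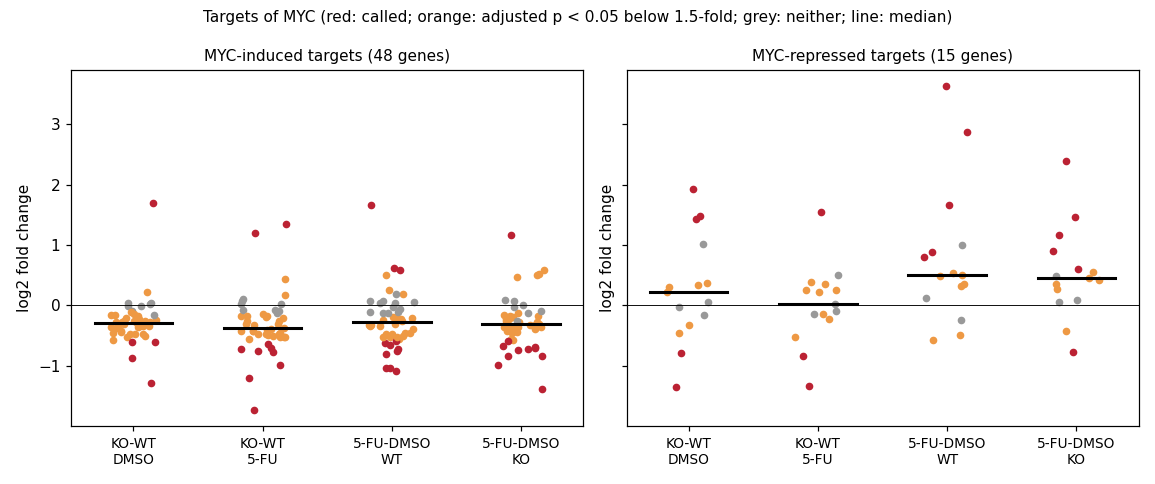
Log2 fold change (y axis) of 48 MYC-induced and 15 MYC-repressed genes in the 4 comparisons (x axis), red where called, orange where the FDR alone was below 0.05 and grey otherwise, with a line at the median. The medians of induced genes lie at -0.29, -0.38, -0.28 and -0.31 and those of repressed genes at 0.23, 0.02, 0.50 and 0.45. With an RUVg factor, which held 98.2% of its variance between treatments, the median of induced genes with 5-FU in WT cells was 0.29 (not drawn).

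Among 10363 genes with a mean of at least 10 CPM, the genes whose log2 CPM followed MYC most closely over the 11 libraries were the chromatin remodeler CHD3 (Pearson r = 0.993), BOP1 (0.993), fatty acid synthase FASN (0.992), the splicing factor PUF60 (0.99) and FDFT1, an enzyme of sterol synthesis (0.99). These r describe 4 groups with few libraries each, in which the difference between genotypes takes most of the range. BOP1, PUF60 and FDFT1 lie on chromosome 8, FDFT1 on the short arm, and CHD3 and FASN on chromosome 17. CHD3 was at 131 and 128 CPM in WT cells with DMSO and 5-FU and at 77.8 and 67.4 CPM in KO cells, the same order of groups as MYC (459, 443, 274 and 225 CPM). CHD3 was picked by its r in these libraries, so that this order is no separate result. BOP1 was at 222 CPM with DMSO and 233 CPM with 5-FU in WT cells, the reverse of MYC.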

How the data were processed

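RNA of 4 groups of HCT116 cells was sequenced paired-end from random-primed cDNA. The authors aligned the reads to GRCh38 (hg38) with CLC Genomics Workbench v20.0.2 and deposited whole-number counts per ENSEMBL gene symbol, to which no filter or normalization had been applied (checked on the values). Samples were grouped by their titles. The column headers of the files labelled WT with 5-FU replicate 2 and 3 carry the numbers 1 and 2, and that of the duplicated library names replicate 3 of WT with DMSO. No batch is named in the labels.

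The 16123 genes that reached 20 counts in any of the 11 libraries were scaled with upper-quartile factors and fitted with glmQLFit and glmQLFTest of edgeR 4.0.16 (two-sided, R 4.3.3) with 1 mean per group. The biological coefficient of variation was 6.72%. p-values were adjusted by Benjamini-Hochberg over all genes of a comparison. An FDR below 0.05 and a fold change above 1.5 made a call, after the study's thresholds. The p-values measure the spread between libraries labelled as biological replicates. CPM used the scaled totals, log2 CPM a prior count of 2, and RPKM the merged exons of GENCODE release 44, in which 37126 symbols and 508 older symbols were found. The fit was tested on simulated counts. Deviations of libraries from their group means had correlations of -0.243 to 0.239 where the titles gave the same number. Other pairs had -0.374 to 0.374. Between KO cells with DMSO and with 5-FU they were 0.127, 0.181 and 0.0682 for same numbers and -0.26 to 0.118 for different numbers. Deviations within groups this small are not independent of each other, so the check cannot tell whether the numbers pair the samples.

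Alternatives were TMM factors, DESeq2 1.42.0, no filter, 20 counts in every library, 1 RUVg factor from 11123 control genes, a replicate block, the duplicated library under its label, no minimum fold change, each library left out, other transcript lengths and a ratio without MGA. The study itself used DESeq2 after RUVg normalization, and edgeR for the interaction. Its RUVg control genes are not named. The members and gene lists (written from general knowledge) were chosen with earlier results of these data known. Named were all members, up to 4 called genes of a list with the largest change (2 with the smallest FDR where none was called), the 5 genes most like MYC, CDKN1A, MIR34AHG and PVT1, except that 1 gene of a list is not reported here. LDHA and HSPD1 tie for the fourth place of a list with DMSO, and values for named genes outside their own place were chosen after they were seen, as was the comparison of each member with its neighbors.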

Additional observations from a re-analysis of the deposited data

Results flagged for a closer look

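The response to 5-FU differed between KO and WT cells for 4 members by the interaction test of edgeR (difference of the log2 fold changes, KO minus WT). The difference was -0.65 ± 0.13 (SE) for MXD4 (FDR = 0.0016), -0.44 ± 0.09 for MAX (FDR = 0.00277), -0.36 ± 0.10 for MNT (FDR = 0.018) and -0.24 ± 0.08 for MYC (FDR = 0.0408). MXD4, MAX and MNT rose with 5-FU in WT cells (0.78, 0.45 and 0.46, but -3.02, -0.96 and -2.21 with an RUVg factor) and did not pass the test in KO cells (0.13, 0.01 and 0.10). MYC did not pass in WT cells (-0.05) and fell in KO cells (-0.29). All 4 rest on 2 libraries of WT cells with 5-FU, of which replicate 2 had the higher level of each of them: 473 against 414 CPM for MYC, 73.5 against 68.2 CPM for MAX, 92.9 against 73.6 CPM for MXD4 and 49.7 against 43 CPM for MNT. Without that library MYC was at -0.14 (FDR = 0.16) and MNT at -0.25 (FDR = 0.0678), and MXD4 at -0.46 (FDR = 0.00709). MNT also did not pass without replicate 3 of KO cells with 5-FU (-0.32, FDR = 0.0512).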

How the results depend on the processing

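The calls of MYC in both comparisons of genotypes held in all alternatives run, with leave-one-out ranges of -0.75 to -0.73 (DMSO) and -1.07 to -0.88 (5-FU). The RUVg factor held 98.2% of its variance between treatments. With this 1 factor in the model the value of MXD4 between genotypes with DMSO (-0.10) changed sign without passing the test. With 5-FU in WT cells the values of MAX (-0.96), MXD4 (-3.02) and MNT (-2.21) did so too. Numbers of called genes then were 1428 (genotypes, DMSO), 3 (5-FU, WT), 1 (5-FU, KO) and 885 (interaction), and of called members 1, 0, 0 and 0, with 2738 and 3027 genes at an unadjusted p below 0.05 in the responses of WT and KO cells. The duplicated library under its label left 0 called genes in the WT response (6467 unadjusted) and 428 in the interaction, and 0 members in both. DESeq2 called 0 members in the interaction. Without a minimum fold 7472, 7995, 9712, 9737 and 4207 genes and 5, 6, 5, 4 and 4 members passed in the order genotypes with DMSO and 5-FU, response of WT and KO cells, and interaction. Leaving out 1 library gave 2088 to 2278, 2541 to 3118, 3863 to 4829, 3838 to 4075 and 1396 to 1972 genes, and 1 to 3, 2 to 2, 2 to 2, 2 to 2 and 0 to 1 members. The third member with DMSO was MXD4 (0.59 without replicate 3 of WT cells). MYC in the interaction did not pass with TMM factors (-0.18), DESeq2 (-0.16), no filter (-0.21), the replicate block (-0.23, FDR = 0.07), the duplicated library (-0.27) or RUVg (-0.10), nor in 9 of the 11 fits that left out a library. The replicate block also ended the test of MYCL between genotypes with 5-FU (-0.27, FDR = 0.0594) and changed no other result of a member. The ratio of repressors to activators was 0.374, 0.675, 0.478 and 0.924 without MGA (WT and KO with DMSO, WT and KO with 5-FU), and 0.425, 0.759 and 1.03 with longest transcripts for WT and KO with DMSO and KO with 5-FU. The causes of these changes were not tested. The limit of the fold and the share of the RUVg factor between treatments are given as descriptions.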

Other observations

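Of 14 regulators of the stability of the MYC protein, 0 were called between genotypes (14.1% of all genes with DMSO and 18.1% with 5-FU). By FDR 6 were lower and 2 higher in KO cells with DMSO (21.9% and 24.5% of all genes). In response to 5-FU 3 were called higher and 4 lower in WT cells (18.5% and 9.38% of all genes). In KO cells 2 were called higher and 3 lower (13.3% and 12%). The kinase AURKA, which protects MYC family proteins, fell from 115 ± 9.16 to 54.3 ± 7.57 CPM in WT cells and from 77.6 ± 2.56 to 38.9 ± 2.89 CPM in KO cells, and the deubiquitinase USP28 fell from 35.9 ± 0.978 to 18 CPM and from 26.8 to 15.5 ± 0.579 CPM. FBXW7, the F-box protein that marks phosphorylated MYC for degradation, rose from 30.2 ± 0.338 to 59.1 ± 9.91 CPM in WT cells (0.96) and from 32.9 ± 2.99 to 72 ± 2.76 CPM in KO cells (1.13). FBXO32, another F-box protein, was higher by 0.97 and 0.91. The median of the list was -0.16 in WT and -0.17 in KO cells, against 0.03 and -0.06 over all genes.

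Among 7 other partners of MYC, 0 were called between genotypes, beside 14.1% of all genes with DMSO and 18.1% with 5-FU. By FDR 5 were lower and 0 higher in KO cells with DMSO (21.9% and 24.5% of all genes), with a median of -0.22. Between genotypes under 5-FU, 2 were lower and 2 higher by FDR (28% and 21.6% of all genes). With 5-FU 1 was called higher and 1 lower in WT cells (18.5% and 9.38% of all genes). In KO cells these numbers were also 1 and 1 (13.3% and 12% of all genes). MIZ1 (ZBTB17), through which MYC represses genes, rose with 5-FU in WT (0.69) and KO cells (0.72), whereas NFYB fell in WT cells (-0.63) and TFAP4, itself a MYC target, in KO cells (-0.59). Of 14 tested genes upstream of MYC (of 16 listed), 2 were called higher and 0 lower in KO cells with DMSO, beside 9.1% and 4.97% of all genes. The 2 were NOTCH1 (65.6 ± 5.24 to 114 ± 4.73 CPM, 0.80) and the beta-catenin target AXIN2 (7.22 ± 0.349 to 12.5 ± 0.814 CPM, 0.79). Nothing particular to this list is read from so few calls. Beta-catenin mRNA (CTNNB1), named after its value was seen, was not called. Its value for KO against WT cells was 0.13 with DMSO and 0.15 with 5-FU, beside medians of 0.03 and -0.05 over all genes. The cell cycle factor E2F1 was at 25.7 ± 4.68 CPM in WT and 49.1 ± 1.56 CPM in KO cells with 5-FU, and its response differed between genotypes by 1.10.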
